A study of Trichoderma reesei with 9 samples.

Results

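The genes described here are the GH16 (glycoside hydrolase family 16) genes M419DRAFT_103726, M419DRAFT_93445, M419DRAFT_95463, M419DRAFT_111701 and M419DRAFT_136875, which are 5 of the 9849 genes counted in the fungus *Trichoderma reesei* RUT-C30. The number in each locus tag is its protein ID, which labels the plots. They are the GH16 genes that the study listed because they were differentially expressed in these same libraries, so the counts of changed genes among them are a description and not independent evidence of a family response. RUT-C30, a strain whose truncated *cre1* gene relieves glucose repression, was grown in shaken liquid Highley's medium for 7 days after washed mycelium had been held in medium without a carbon source. Cultures received 1% (w/v) glucose, 0.45% (w/v) low melanin necromass or 0.45% (w/v) high melanin necromass, with 3 replicate cultures per substrate. Both necromass types were freeze-dried mycelium of the ascomycete *Hyaloscypha bicolor*, grown in different liquid volumes and shaking speeds to set its melanin content and harvested in bulk, so that all cultures of 1 type shared 1 preparation. Glucose and necromass differ in kind and in amount, and these cannot be told apart. By the study's chemical measurements, high melanin necromass also held relatively more nitrogen-containing components and relatively less sugar than low melanin necromass. Between the necromass types, melanin, these components and the preparation cannot be told apart. The study asked which genes *T. reesei* turns to when it feeds on fungal cell walls, and which of these depend on melanin.

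GH16 is a family of retaining glycoside hydrolases with a jelly-roll fold. It holds endo-acting enzymes that cut β-1,3- and mixed-linked β-glucans, and in fungi also the Crh transglycosylases, which in *Saccharomyces cerevisiae* join chitin to β-glucan in the fungus's own cell wall. The family name therefore does not tell a digestive enzyme from a wall-building one. In the annotation that accompanies the study's gene list, 4 of the 5 genes have an entry. Proteins M419DRAFT_103726 and M419DRAFT_93445 carry the GH16 domain of Pfam and InterPro, whereas M419DRAFT_111701 and M419DRAFT_136875 carry the GH16 tag with only the broader concanavalin A-like lectin/glucanase superfamily entry. For M419DRAFT_111701 an actinin-type actin-binding site is listed as well. Protein M419DRAFT_95463 has no entry in the copy used here and is known as GH16 from the study alone. The annotation also gives M419DRAFT_103726 and M419DRAFT_93445 the general activity of hydrolysing O-glycosyl bonds, and the study counts the family among those that act on β-1,3-glucan.

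Libraries held between 18074631 and 24635281 counts, and 9312 genes that reached 10 counts in 3 libraries or more were tested. Levels are CPM after TMM scaling, counts relative to the size of the library. In bulk RNA, fewer expressing cells and less RNA per cell cannot be told apart. All 5 genes entered the test, but M419DRAFT_93445 reached 10 counts in the 3 high melanin libraries alone and M419DRAFT_95463 in those and 1 glucose library. These genes could thus pass only where they were high. Glucose replicate 1 stood apart from the other glucose cultures: over all genes, the chi-square per gene was 307 and 350 against replicates 2 and 3, and 42.8 between those. The changes of the 5 genes against glucose are given with and without it, and so are the glucose level and share of M419DRAFT_103726. Changes of genes in other families are given with all 3 glucose libraries.

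**Figure D1:**
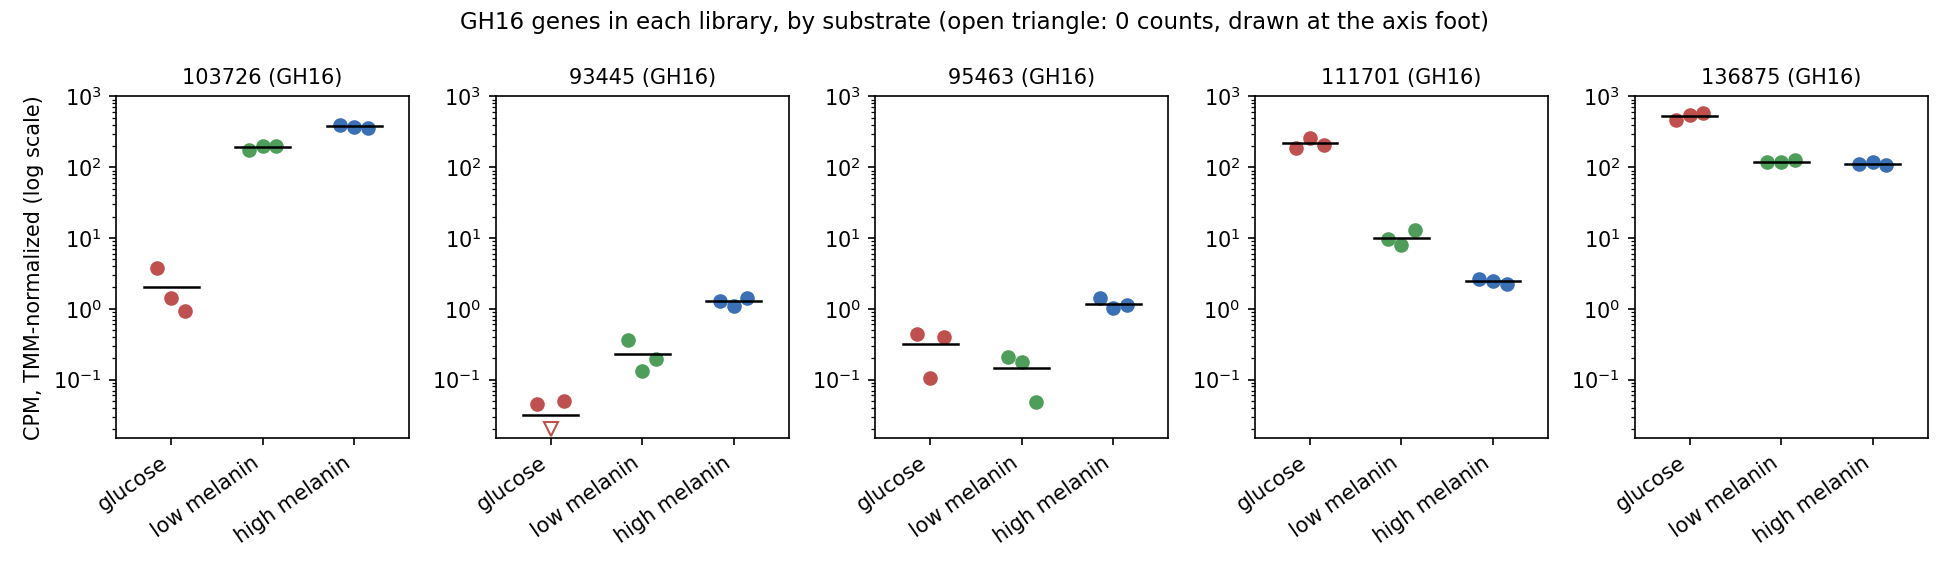
Level of each GH16 gene in every library, as TMM-normalised CPM on a log scale, with points for the 3 replicates of a substrate, a line at their mean and an open triangle at the foot for a library with 0 counts. Gene M419DRAFT_103726 climbs from a glucose mean of 2.03 CPM to 378 with high melanin necromass while M419DRAFT_111701 descends from 217 to 2.46 CPM, and M419DRAFT_136875 stays near 120 and 113 CPM on the necromass types.

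Gene M419DRAFT_103726 was nearly silent on glucose and abundant on necromass. Its glucose libraries held 3.73, 1.41 and 0.935 CPM, its low melanin libraries 177, 199 and 197 CPM, and its high melanin libraries 400, 375 and 359 CPM. The ranges of the 3 substrates did not overlap, and the order was glucose, then low melanin, then high melanin necromass. Against glucose it was up-regulated by 6.54 on the log2 scale on low and by 7.52 on high melanin necromass, with SEs of 0.41 and 0.43 and adjusted p values of 6.49e-07 and 2.76e-07 (edgeR quasi-likelihood, Benjamini-Hochberg adjusted). These changes were the 88th and the 61st largest increases among the 9312 genes.

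The 3 replicates of M419DRAFT_103726 lay closer together on necromass than on glucose. Its coefficient of variation (CV, the SD as a share of the mean) was 6.26% on low and 5.47% on high melanin necromass. The medians over all genes were 8.31% and 7.86%, and 64.5% and 68.4% of genes had a higher CV. All genes include scarce ones, whose CV also holds counting noise. On glucose the CV was 73.9%, and only 4.04% of genes had a higher one. Glucose replicate 1, with 84 counts, lay 3.99-fold above replicate 3, with 19. Without glucose replicate 1 the log2 fold changes were 7.34 and 8.32. The mean glucose level was 0.536% of the high melanin level. Of the 239 genes at least as abundant on high melanin necromass, 23 had a lower such percentage, down to 0.0729%. Without glucose replicate 1 the glucose mean was 1.17 CPM, which is 0.31% of the high melanin level, and 18 of these genes had a lower percentage.

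Gene M419DRAFT_93445, which is also listed with the GH16 domain entry, was scarce everywhere and had its highest level on high melanin necromass. It had 1, 0 and 1 counts in the glucose libraries, 7, 3 and 4 in the low melanin libraries, and 30, 25 and 28 in the high melanin libraries. These are means of 0.0312 ± 0.0271 CPM (SD, n = 3), 0.232 ± 0.122 CPM and 1.27 ± 0.155 CPM, with no overlap between substrates. With 2 counts in all on glucose, the size of its increase there is poorly fixed. The ratio of summed counts to glucose was 6.99 on low melanin necromass (exact 95% interval from 1.61 to 63.4) and 39.2 on high melanin necromass (10.5 to 329), and these intervals cover counting error only. The fitted log2 fold changes, whose size depends on the prior count of the model, were 2.61 and 5.06, with SEs of 0.72 and 0.56 and adjusted p values of 0.00842 and 2.13e-05 (edgeR quasi-likelihood, Benjamini-Hochberg adjusted). Without glucose replicate 1 they were 2.88 and 5.34.

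Between the necromass types M419DRAFT_93445 rose 5.46-fold on high melanin necromass (log2 2.45, SE 0.40, adjusted p = 0.00751; edgeR quasi-likelihood, Benjamini-Hochberg adjusted). By summed counts, 83 against 14, the ratio was 5.60 with a counting interval from 3.16 to 10.7. This was the 39th largest increase of all genes in that comparison. The gene passed the count filter through the high melanin libraries alone, where it is high, so its changes are a description. Leaving out 1 high melanin library takes the gene below the count filter. When it was kept in the test, a choice made after the data were seen, the log2 fold change lay between 2.36 and 2.53 with adjusted p values from 0.0269 to 0.0373 (edgeR).

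Gene M419DRAFT_95463 was highest on high melanin necromass and did not pass the test between low melanin necromass and glucose. Glucose libraries had 10, 2 and 8 counts, low melanin libraries 4, 4 and 1, and high melanin libraries 33, 23 and 22. The high melanin libraries lay above all others, whereas the glucose and low melanin ranges overlapped. Mean levels were 0.314 ± 0.183 CPM (SD, n = 3) on glucose, 0.146 ± 0.0858 CPM with low melanin and 1.18 ± 0.205 CPM with high melanin. On low melanin necromass the difference from glucose did not pass the test, with a log2 value of −1.11 (SE 0.61, adjusted p = 0.128, edgeR quasi-likelihood) and a 95% interval from −2.49 to 0.27. Without glucose replicate 2, the library with 2 counts, it was −1.50 with an adjusted p of 0.028 (edgeR). Without glucose replicate 1 it was −0.79 with an adjusted p of 0.339 (edgeR). These adjusted p values are the ends of their range over the alternatives that test against no change. The log2 value itself ranged from −1.50 to −0.71. On high melanin necromass it was 1.87 (SE 0.46, adjusted p = 0.00405, edgeR quasi-likelihood), just short of the fold change threshold of 2. That value reached 2.19 without glucose replicate 1 and 2.03 without glucose replicate 3, both past the threshold.

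The contrast of the necromass types was the largest for M419DRAFT_95463 among the 5 genes. It was 7.88-fold higher on high than on low melanin necromass (log2 2.98, SE 0.52, adjusted p = 0.00885; edgeR quasi-likelihood, Benjamini-Hochberg adjusted), the 25th largest increase of 9312 genes. The summed counts were 78 and 9, a ratio of 8.19 with a counting interval from 4.10 to 18.6. The gene passed the count filter through the high melanin libraries and 1 glucose library, so these values are a description. The contrast of the necromass types is also the test of the difference between the values against glucose, since glucose cancels from it.

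Gene M419DRAFT_111701 showed the reverse order, highest on glucose and lowest on high melanin necromass. It stood at 185, 258 and 208 CPM on glucose, at 9.62, 7.96 and 12.8 CPM on low melanin necromass, and at 2.65, 2.49 and 2.23 CPM on high melanin necromass. No 2 substrates overlapped, and the lowest glucose library was far above the highest low melanin library. The log2 fold changes against glucose were −4.42 on low and −6.46 on high melanin necromass, with SEs of 0.20 and 0.23 and adjusted p values of 9.89e-08 and 2.14e-08 (edgeR quasi-likelihood, Benjamini-Hochberg adjusted). They ranked as the 89th and the 34th largest decreases of all genes. They were −4.53 and −6.57 without glucose replicate 1. Its high melanin level was 1.13% of its glucose level. Of the 786 genes at least as abundant on glucose, 17 had a lower percentage.

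From low to high melanin necromass M419DRAFT_111701 fell 4.10-fold (log2 −2.04, SE 0.21, adjusted p = 0.00131; edgeR quasi-likelihood, Benjamini-Hochberg adjusted), the 25th largest decrease. This value sat on the threshold. It was −1.83 without low melanin replicate 3, the library with 12.8 CPM, and −1.99 without high melanin replicate 3, and then the gene was no longer called, although the adjusted p values were 0.00504 and 0.0112 (edgeR) and lay between 5.86e-15 and 0.0112 over the alternatives that test against no change.

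Gene M419DRAFT_136875 was the most even of the set and separated glucose from necromass only. The glucose libraries held 469, 553 and 587 CPM, the low melanin libraries 119, 117 and 125 CPM, and the high melanin libraries 110, 120 and 107 CPM. Every glucose library lay above every necromass library, and the necromass types overlapped. It fell 4.47-fold on low and 4.76-fold on high melanin necromass, log2 fold changes of −2.16 and −2.25 (SE 0.12 for both; adjusted p = 2.55e-07 and 1.63e-07, edgeR quasi-likelihood, Benjamini-Hochberg adjusted). High and low melanin necromass differed by −0.09 (SE 0.11, adjusted p = 0.657, edgeR quasi-likelihood), with a 95% interval of the log2 difference from −0.34 to 0.16. Without glucose replicate 1 the changes against glucose were −2.26 and −2.35.

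**Figure D2:**
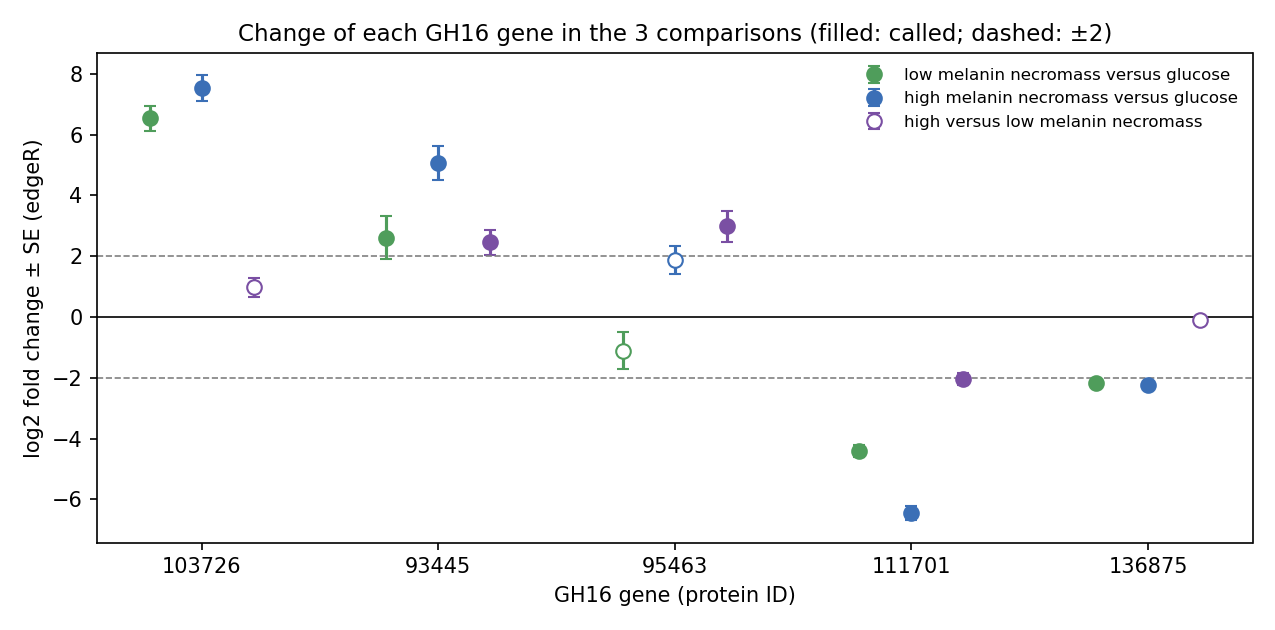
Log2 fold change of each GH16 gene in the 3 comparisons, with SE bars from edgeR's fit of all 9 libraries, filled points for genes called and dashed lines at the threshold of 2 in either direction. The largest values against glucose are 7.52 for M419DRAFT_103726 and −6.46 for M419DRAFT_111701, and M419DRAFT_95463 has open points at −1.11 and 1.87 against glucose and a filled point at 2.98 between the necromass types.

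Counted over the set, the calls needed an adjusted p below 0.05 together with a log2 fold change of 2 or more, up or down. Low melanin necromass had M419DRAFT_103726 and M419DRAFT_93445 called up and M419DRAFT_111701 and M419DRAFT_136875 down against glucose, 4 of 5 genes, where 19.2% of all genes were called, 12.0% up and 7.18% down. High melanin necromass gave the same 4 calls, where 22.3% of all genes were called, 13.5% up and 8.80% down. High against low melanin necromass had M419DRAFT_93445 and M419DRAFT_95463 called up and M419DRAFT_111701 down, 3 of 5 genes. In that comparison 0.870% of all genes were called, 0.655% up and 0.215% down. At any size of change, an adjusted p below 0.05 was reached on low melanin necromass by 4 of the 5 genes and 74.4% of all genes, on high melanin necromass by 5 and 75.7%, and between the necromass types by 3 and 9.19%. Replicate ranges did not overlap for 4 of the 5 genes and 75.6% of all genes in the first comparison, for 5 and 76.2% in the second, and for 4 and 48.7% in the third. In M419DRAFT_103726, M419DRAFT_93445 and M419DRAFT_111701 all 3 substrates were apart, as they were in 33.6% of all genes. The median log2 fold change of the 5 genes was −1.11, 1.87 and 0.98 in the 3 comparisons, beside 0.01, 0.02 and −0.01 over all genes tested. The study picked these genes for their changes, so nothing is read from these shares. M419DRAFT_93445 entered these counts only through the high melanin libraries, and M419DRAFT_95463 through those and 1 glucose library. In the fit of low melanin necromass and glucose alone, neither could be tested. That fit called 3 of the 5 genes, and 1073 up and 660 down of all 9186 genes tested. The comparisons against glucose share the 3 glucose libraries.

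The contrast of the necromass types did not give a call for M419DRAFT_103726, yet its high melanin libraries all lay above its low melanin libraries. The level was 1.98-fold higher with high melanin, which is 0.98 on the log2 scale, with an SE of 0.31 and an adjusted p of 0.0847 (edgeR quasi-likelihood, Benjamini-Hochberg adjusted). The fit of all 9 libraries uses 1 dispersion per gene, and for this gene it takes in the wide spread among the glucose cultures. When the 6 necromass libraries were fitted alone, the log2 fold change was again 0.98 but the SE was 0.09 and the adjusted p 0.000195 (edgeR). Without glucose replicate 1 the adjusted p was 0.00014, without glucose replicate 3 it was 0.0345 (edgeR), and with DESeq2 it was 0.0223. It ranged up to 0.254 over the alternatives that test against no change. The size of the change stayed between 0.93 and 1.01 throughout. It is under the fold change threshold in every setting.

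**Figure D3:**
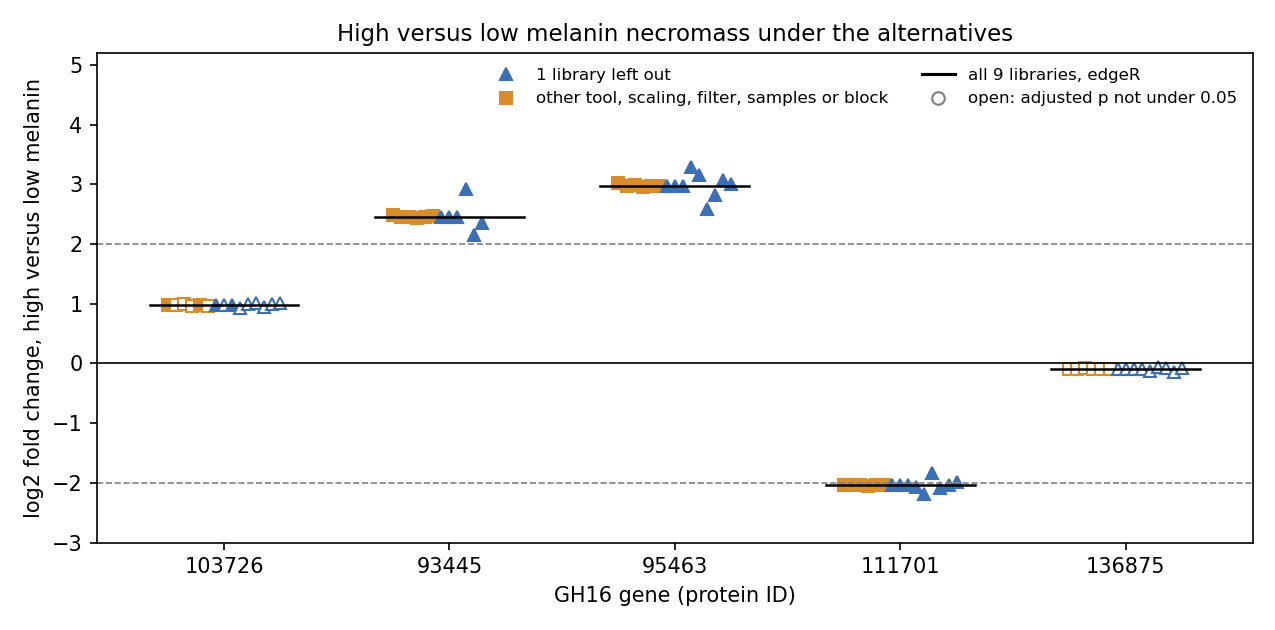
Log2 fold change between high and low melanin necromass for each GH16 gene, under each library left out (triangles) and under other tools, scalings, filters, samples or the replicate block (squares), with open symbols where the adjusted p was not under 0.05 and a line at the value from all 9 libraries. The values of M419DRAFT_103726 stay between 0.93 and 1.01 while filled and open symbols mix, and those of M419DRAFT_111701 straddle the threshold between −2.19 and −1.83. Not drawn are glmTreat and, for M419DRAFT_93445, the fits without a high melanin library, where it fell below the count filter.

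Among these 5 genes, the substrates differed in which gene supplied most of the counts. The 5 were listed for changing between these substrates and other GH16 genes are not counted, so this describes the set and not the family. Summed over the 5 genes, the level was 756 ± 84.5 CPM (SD, n = 3) on glucose, 322 ± 14.4 CPM with low melanin and 495 ± 22.5 CPM with high melanin. As shares of these 5 genes' counts, which are not corrected for transcript length, M419DRAFT_136875 and M419DRAFT_111701 made up 71.0% ± 2.84 and 28.6% ± 2.87 on glucose (SD, n = 3), and M419DRAFT_103726 made up 0.286% ± 0.245. Without glucose replicate 1 the summed glucose level was 804 CPM and the share of M419DRAFT_103726 was 0.146% (n = 2). On low melanin necromass M419DRAFT_103726 held 59.4% ± 1.81, M419DRAFT_136875 held 37.3% ± 1.37 and M419DRAFT_111701 held 3.14% ± 0.678. On high melanin necromass the share of M419DRAFT_103726 was 76.3% ± 1.29, that of M419DRAFT_136875 was 22.7% ± 1.34 and that of M419DRAFT_111701 was 0.495% ± 0.0209. The genes M419DRAFT_93445 and M419DRAFT_95463 together stayed under 1 percent of these counts in every library, at 0.257% ± 0.0403 and 0.238% ± 0.0350 on high melanin necromass.

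**Figure D4:**
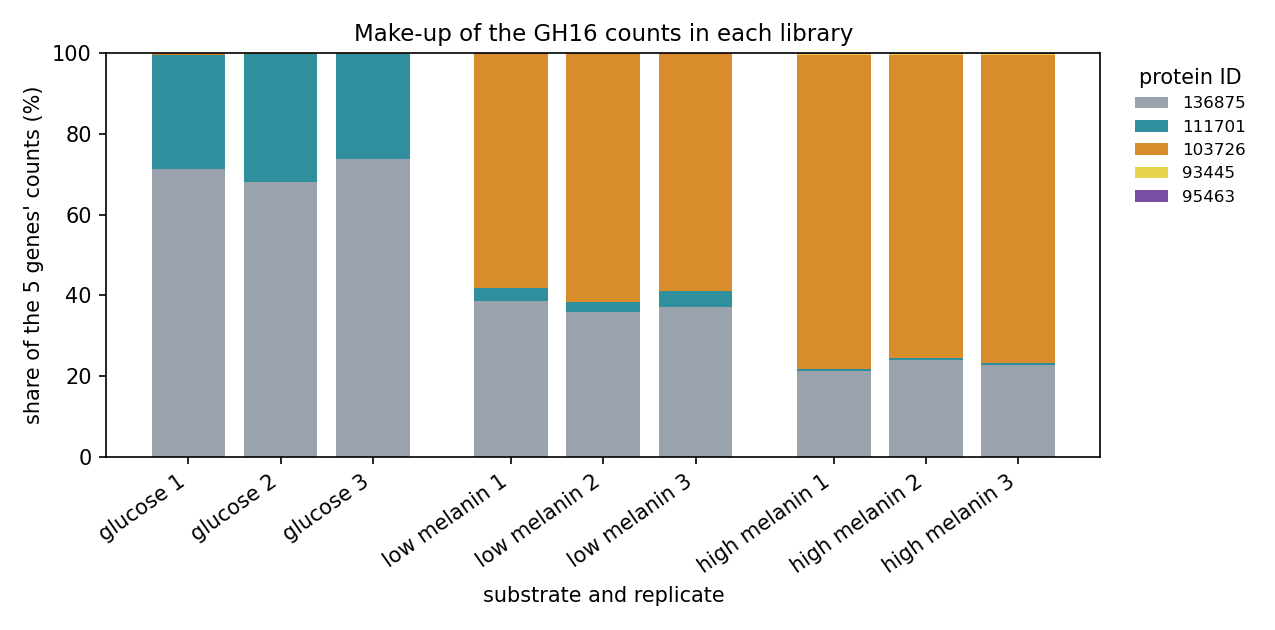
Share of each gene in the summed counts of the 5 GH16 genes, in percent, for each of the 9 libraries. In all 3 glucose libraries M419DRAFT_136875 and M419DRAFT_111701 fill nearly the whole bar, and M419DRAFT_103726 takes 57.9% to 61.5% on low and 75.0% to 77.6% on high melanin necromass.

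A ratio of 2 genes within a library does not depend on the scaling of libraries. The ratio of M419DRAFT_103726 to M419DRAFT_111701 counts was 0.0202, 0.00547 and 0.00450 on glucose. It was 18.4, 25 and 15.4 on low melanin necromass and 151, 151 and 161 on high melanin necromass. The ranges did not overlap, and within glucose replicate 1 had the highest ratio. The pair that is highest on glucose did not keep a fixed proportion either, since the ratio of M419DRAFT_136875 to M419DRAFT_111701 was 2.14 to 2.83 on glucose, 9.75 to 14.6 on low and 41.5 to 48.4 on high melanin necromass.

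Other families that act on the β-glucan core of the fungal wall were read for comparison. They were the 13 genes of families GH17, GH55, GH64, GH72, GH128 and GH30_3 in the study's gene list, which again were listed for changing in these libraries. GH55 and GH64 hold β-1,3-glucanases, GH17 and GH72 include the glucanosyltransferases that remodel the wall in yeasts and moulds, GH128 holds endo-β-1,3-glucanases, and GH30_3 cuts β-1,6-glucan. Set against glucose, low melanin necromass had 4 of them up and 7 down, and high melanin necromass 5 up and 7 down, where 12.0% and 7.18% of all genes, and then 13.5% and 8.80%, were called up and down. These genes had a median log2 fold change of −2.42 and −2.39. The GH64 gene M419DRAFT_125427 had the largest increase on both, 6.34 (SE 0.13) and 6.73 (SE 0.13). The largest decrease was that of the GH30_3 gene M419DRAFT_74697 on low melanin necromass, −3.86 (SE 0.87), and that of the GH17 gene M419DRAFT_110434 on high melanin necromass, −4.32 (SE 0.24). The first is loosely fixed, from a mean of 4.96 CPM on glucose to 0.339 CPM, with a 95% interval from −5.82 to −1.90. That interval takes in the −3.42 (SE 0.23) of M419DRAFT_110434 on low melanin necromass. Like the GH16 genes, these 13 hold members called in both directions.

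Between the necromass types 0 of the 13 genes were called by edgeR, where 0.870% of all genes were called, so nothing is read from this count. At any size of change, 4 of the 13 had an adjusted p below 0.05 by edgeR, where 9.19% of all genes did. DESeq2 called 0 of the 13 and had 5 below 0.05 after adjustment, where 1428 of all 9312 genes were. The 13 were listed for changing in these libraries, so nothing is read from these counts either. Their median log2 fold change was −0.26.

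For each GH16 gene the genes with the most similar profile were taken by Pearson's r of log2(CPM + 0.5) over the 9 libraries, which fall into 3 substrates and share their scaling. This measure compares shape and not size. For M419DRAFT_103726 they were M419DRAFT_35563, which has a protein kinase and a response regulator domain, M419DRAFT_103059 and M419DRAFT_98934, all with r of 0.998 or 0.999. Such likeness is common, since 1359 of the 9311 other genes had r over 0.95 with M419DRAFT_103726, 1077 with M419DRAFT_111701 and 1366 with M419DRAFT_136875. For M419DRAFT_111701 the closest were M419DRAFT_95431, M419DRAFT_124035, which encodes a ribosomal protein of the S27e type, and M419DRAFT_121497, with r from 0.996 to 0.997. For M419DRAFT_136875 they were M419DRAFT_105289, a homoserine kinase, M419DRAFT_78645, an ABC transporter, and M419DRAFT_141126, a GT1 glycosyltransferase, each with r of 0.998.

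The scarce genes had fewer genes with r over 0.95. On glucose and low melanin necromass their mean levels lay under the 0.5 added to the CPM, with 0 to 10 counts per library. Whether low counts alone lowered r was not tested, so the smaller numbers are not read as a rarer pattern. Only 40 genes had r over 0.95 with M419DRAFT_93445, led by the protein kinase gene M419DRAFT_126792 (r = 0.986), the AA1 laccase gene M419DRAFT_104519 (r = 0.978) and M419DRAFT_130310 (r = 0.977). The laccase gene had a mean of 0 CPM on glucose, 0.607 CPM with low melanin and 8.13 CPM with high melanin. For M419DRAFT_95463 only 2 genes passed r of 0.95, M419DRAFT_69405 (r = 0.987) and M419DRAFT_139410 (r = 0.9502), followed by M419DRAFT_75798 (r = 0.946). Gene M419DRAFT_69405 was as scarce as M419DRAFT_95463 and followed the same order, with means of 0.313, 0.126 and 1.96 CPM on glucose, low and high melanin necromass.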

How the data were processed

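RNA of 9 *T. reesei* RUT-C30 cultures was extracted on the same day, captured by poly(A) tail and sequenced in paired-end mode. The authors trimmed the reads with CHURP, quantified them with kallisto version 0.48.0 against the RUT-C30 cDNA sequences of Ensembl Fungi, imported them with tximport and deposited estimated counts per gene, in whole numbers, not scaled for library size or length. kallisto divides reads shared by similar transcripts by estimation, so counts of close paralogs are uncertain. The table lists 9849 locus tags without lengths. The reference table given here covers strain QM6a and shares 0 locus tags with it, so no sequence, coordinate or level per length is given, and the planned list of further GH16 genes could not be made.

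Replicates differed by more than sampling noise in every pair (chi-square per gene from 11.7 to 350). Genes that reached 10 counts in 3 or more libraries were tested with edgeR version 4.0.16 under R version 4.3.3, by TMM scaling and a quasi-likelihood fit of all 9 libraries with the 3 substrates as groups. The common biological coefficient of variation was 0.193. Adjusted p values (Benjamini-Hochberg) cover all genes tested, and each SE follows from the F statistic. Intervals of differences are 95% intervals of this fit. Intervals of count ratios are exact binomial, conditional on the summed counts. The test was checked on simulated data in which only well-counted genes changed and all genes had the same dispersion. That check does not cover scarce genes or a spread that differs between substrates. Alternatives were DESeq2 version 1.42.0, RLE or upper-quartile factors, no filter, the fit of the 2 groups compared, glmTreat against a log2 fold change of 2, a block for the replicate number, and single libraries left out; the gene filter of all libraries was kept with a high melanin library left out as an alternative chosen after seeing the data. The GH16 genes, the lists and the tests were chosen with earlier results of these data known. Genes named are the 5 GH16 genes, the 3 genes most like each in profile, and in the other β-glucan families the called gene with the largest change in each direction.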

Additional observations from a re-analysis of the deposited data

Results flagged for a closer look

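For 3 of the 5 genes the change against glucose differed between the necromass types by the test of the difference itself, the contrast of high and low melanin necromass. This log2 difference was 2.45 for M419DRAFT_93445, 2.98 for M419DRAFT_95463 and −2.04 for M419DRAFT_111701 (edgeR quasi-likelihood, Benjamini-Hochberg adjusted over all genes, adjusted p = 0.00751, 0.00885 and 0.00131). In this contrast 0.870% of all genes were called, and the 5 genes had been listed for changing in these libraries. M419DRAFT_93445 and M419DRAFT_95463 passed the count filter through the high melanin libraries, where they are high, and their values are a description. Without the filter their adjusted p values were 0.00915 and 0.0104 (edgeR). Against glucose M419DRAFT_95463 stood at 1.87 on high and at −1.11 on low melanin necromass, and the latter did not pass the test (adjusted p = 0.128, edgeR), with overlapping replicates.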

How the results depend on the processing

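No change of a GH16 gene turned direction under any alternative. With glmTreat the GH16 genes called fell from 4 to 2 on low melanin necromass against glucose, with M419DRAFT_93445 (2.61) and M419DRAFT_136875 (−2.16) lost. In that comparison glmTreat called 1144 of all 9312 genes. Between the necromass types they fell from 3 to 0, with M419DRAFT_93445 (2.45), M419DRAFT_95463 (2.98) and M419DRAFT_111701 (−2.04) lost, and 2 of all 9312 genes stayed called. With 1 library left out, the number called was 3 to 4 on low and 3 to 5 on high melanin necromass against glucose, and 1 to 3 between the necromass types. Over all genes, these fits called 1080 to 1157 up and 614 to 695 down on low melanin necromass against glucose. On high melanin necromass they called 1217 to 1284 up and 762 to 841 down, and between the necromass types 32 to 78 up and 14 to 28 down. The count of 1 came without high melanin replicate 3, where M419DRAFT_93445 fell under the filter and M419DRAFT_111701 under the threshold; with M419DRAFT_93445 kept it was 2. Left-out libraries gave 1.48 to 2.19 for M419DRAFT_95463 on high melanin necromass against glucose, and −2.19 to −1.83 for M419DRAFT_111701 between the necromass types. In the fit of low melanin necromass and glucose alone, M419DRAFT_93445 and M419DRAFT_95463 had too few counts to be tested. Same-numbered replicates did not deviate together: 1 of 9 pairs had a correlation over 0.1 (range −0.194 to 0.105). With the replicate block 4, 4 and 3 GH16 genes were called in the 3 comparisons, as without it. Of the 15 genes named for their profile, 3 stayed among the closest by rank correlation and 0 over the 6 necromass libraries alone. Counts of 0 to 10 per library limit M419DRAFT_93445 and M419DRAFT_95463 on glucose and low melanin necromass.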
